A study of Mus musculus with 4 samples.

Results

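The 7 regulators of the primitive streak, the embryonic midline and the paraxial mesoderm followed here were T, Foxa2, Lhx1, Sp5, Tcf15, Aplnr and Dll3. They were chosen by name, with earlier results of these data known. All 7 were among the 1197 genes of the authors' deposited table of cluster markers, in 11 of its 2212 entries. Their presence in it follows from that choice. Each entry sets the cells of 1 of 15 numbered clusters against all other cells. Mouse embryonic stem cells with a triple FLAG tag on BRG1 had been taken through directed cardiac differentiation and profiled by droplet single-cell RNA sequencing. The series held 4 libraries, 1 per group: Brm knockout cells at the mesoderm stage, wild-type cells at the mesoderm stage, Brm knockout cells at the cardiac stage and wild-type cells at the cardiac stage. All 4 carried the tagged BRG1, and whether the knockout came from 1 clone is not stated. Brm and BRG1 are the alternative ATPases of the BAF chromatin remodelling complex. No column of the table names a library, and the labels do not say whose cells it holds, so genotypes and stages were not compared. Its deposited title speaks of the Brm knockout alone, so it may hold only part of the libraries. Smarca2, the gene for Brm, had no entry, so the knockout cannot be checked from it. There are no replicates, cell numbers and depth are unknown, and every cluster shares most of its comparison cells with the others. The clusters were built from the same expression values, so no test was made and the values below are descriptions.

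During gastrulation, epiblast cells pass through the primitive streak under Wnt and Nodal signals and leave it as mesoderm or endoderm. T (brachyury) is the T-box factor of the streak and notochord, and Sp5 is a zinc finger factor that Wnt signalling induces there. Foxa2, a forkhead factor, and Lhx1, a LIM homeodomain factor, act in the node, the anterior midline and the endoderm that arise from the anterior streak. Tcf15 is the basic helix-loop-helix factor paraxis of the paraxial mesoderm, Dll3 is a divergent Notch ligand needed for somite segmentation, and Aplnr is the receptor of the peptides apelin and Elabela in early mesoderm.

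The sequences upstream of T and Sp5 are shown because both genes were listed for cluster 3 alone and both are textbook targets of Wnt signalling, which acts through TCF/LEF factors. They are the 250 bases before the start site on the coding strand, from RefSeq on GRCm38.p6, at chr17:8434173-8434422 (plus strand) for T and chr2:70474673-70474922 (plus strand) for Sp5. Capitals mark the core CTTTGA or CTTTGT on either strand.
T: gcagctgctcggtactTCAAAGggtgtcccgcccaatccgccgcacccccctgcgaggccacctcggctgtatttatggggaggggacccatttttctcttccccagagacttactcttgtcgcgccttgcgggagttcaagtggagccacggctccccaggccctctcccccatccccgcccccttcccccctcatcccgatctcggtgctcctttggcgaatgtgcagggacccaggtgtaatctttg
Sp5: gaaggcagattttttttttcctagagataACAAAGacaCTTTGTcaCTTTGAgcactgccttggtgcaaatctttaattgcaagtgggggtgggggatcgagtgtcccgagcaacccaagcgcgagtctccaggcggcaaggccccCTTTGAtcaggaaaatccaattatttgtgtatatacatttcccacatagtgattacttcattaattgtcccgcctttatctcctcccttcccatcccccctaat
The Sp5 window held 4 such cores that do not overlap each other, and the T window held 1. Of 32851 mouse windows of this length, 27.6% held at least 1 core and 0.0944% held 4 or more. A T-box core, AGGTGT on either strand, occurred once in the T window, at bases -14 to -9 from the start site, and in 11.8% of all windows. RefSeq windows were found for 5 of the 7 genes, all but Tcf15 and Aplnr. Neither motif was in the windows of Lhx1 or Dll3, and 1 of the 3 start sites of Foxa2 had 1 TCF/LEF core. These matches describe the letters of the windows and no binding was measured.

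The 11 entries fell in 5 clusters, and all were higher inside the cluster. Cluster 3 listed 4 of the 7 genes (T, Foxa2, Lhx1 and Sp5) as higher, where 5.26% of all genes in the table were listed higher. Cluster 7 also listed 4 (Tcf15, Aplnr, Dll3 and Lhx1), against 3.34% of all genes. Cluster 0 listed Tcf15 (3.09% of all genes), cluster 6 listed Foxa2 (2.51%) and cluster 12 listed Dll3 (7.77%). Because the 7 genes were chosen with earlier results of these data known, these counts are not read as many or few. The other 10 clusters listed none of the 7, among them cluster 2, which is led by the cardiac genes Actc1, Myl7 and Myl4, and cluster 8, led by Pou5f1. A gene is absent from a cluster's entries where the change was under 0.50 on the natural log scale or where fewer than about 25% of cells detected it on both sides, so an absent entry is not a level of 0. Each of the 7 was detected in at most 13.7% of all cells, and the largest cluster held 15.5% of cells by the sizes solved below. Detection outside a cluster could therefore not reach 25%, so this floor left almost no room for a lower entry. That all 11 entries were higher was largely set by the floor and is not read as a result. Only differences past these limits can appear, so the size of an entry above them supports nothing by itself.

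**Figure D1:**
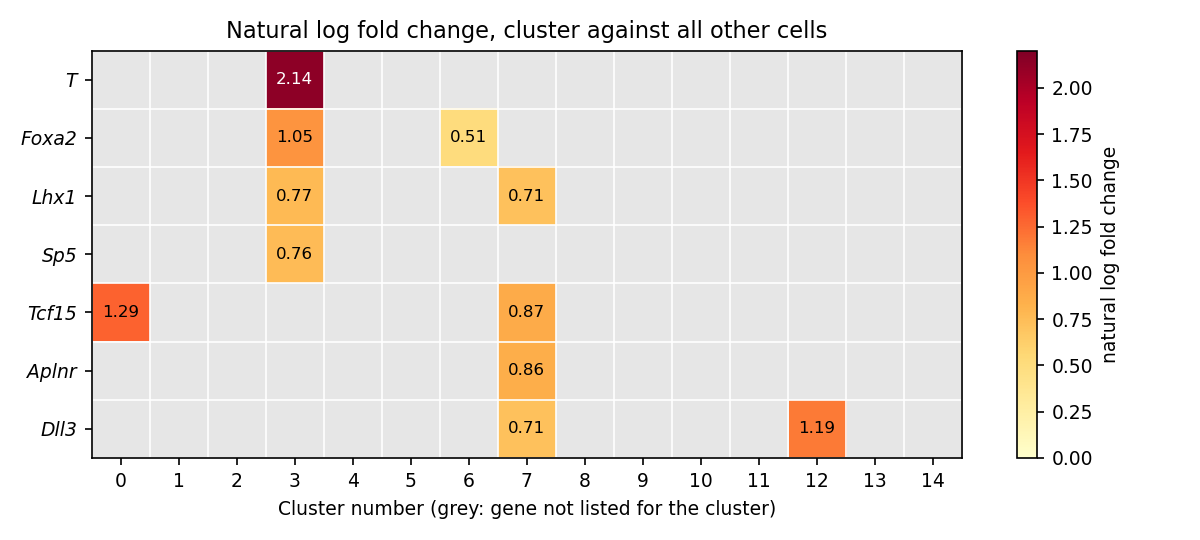
Natural log fold change of each gene (rows) in each numbered cluster (columns) against all other cells, from the authors' deposited table. The 11 coloured cells are its entries, from 0.51 for Foxa2 in cluster 6 to 2.14 for T in cluster 3, and grey cells have no entry.

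T had the largest difference of the 7. The authors' deposited table gave detection in 78.2% of the cells of cluster 3 and in 3% of all other cells, with a fold of 8.46. Each fold here compares mean levels after the authors add a constant, so it is not a plain ratio of means. Of the 63 genes listed higher in cluster 3, T ranked 2 by fold, after the keratin gene Krt8, and 1 by the ratio of detection inside over outside, which was 26.1 against a median of 3.33. Cluster 3 held 10.4% of cells, by sizes solved from the detection shares, but 75.1% of the cells that detected T (74.7% to 75.4% from the rounding of the deposited shares). The remaining 24.9% lay in 14 clusters. If all of these lay in cluster 0, they would be 17.3% of its cells, so cluster 0 could not have reached 25% detection, and the same bound held for 3 of the 14 clusters.

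Foxa2 was split between 2 clusters. By the authors' deposited table, 44.9% of the cells of cluster 3 and 5.9% of all other cells detected it, and its fold was 2.85. For cluster 6 the authors' deposited table gave 27.8% of cells inside, 8.5% outside and a fold of 1.66. The natural log of that fold, 0.51, lies just inside the 0.50 limit of the table. Cluster 3 held 46.7% of the cells that detected Foxa2 and cluster 6 held 21.3%, while 3.88% of the cells of the other 13 clusters detected it. To set clusters side by side, the mean level in a cluster (with the constant that the authors add before taking logs) was divided by that in the pooled clusters with no entry. On this scale Foxa2 stood at 3.11 in cluster 3 and 2.05 in cluster 6, a ratio of 1.51.

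Lhx1 was listed for clusters 3 and 7 at nearly the same level. For cluster 3 the authors' deposited table gave detection in 28.8% of cells inside and 4.2% outside, with a fold of 2.16. For cluster 7 the same authors' deposited table gave 27.5% inside and 5.2% outside, with a fold of 2.04. Against the pooled clusters with no entry, its level was 2.39 in cluster 3 and 2.36 in cluster 7, a ratio of 1.01. The order of these 2 clusters has no spread to judge it by. Together they held 72.5% of the cells that detected Lhx1, and 2.24% of the cells elsewhere detected it. Lhx1 was the only gene of the 7 with entries in both cluster 3 and cluster 7.

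Sp5 was listed for cluster 3 only, and less sharply than T. Detection by the authors' deposited table was 27.8% in cluster 3 and 5.6% in all other cells, and the fold was 2.15. That fold was the median of the 63 genes listed higher there. Cluster 3 held 36.4% of the cells that detected Sp5, and 63.6% lay in the 14 clusters with no entry, in proportions that the table does not give.

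**Figure D2:**
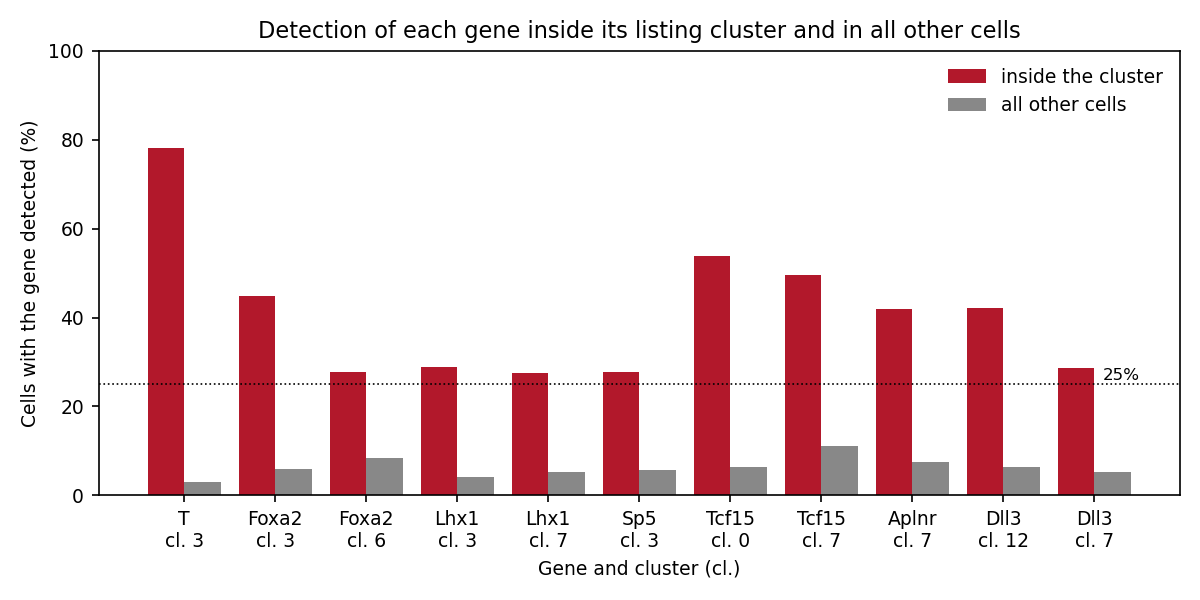
Percent of cells with the gene detected inside each listing cluster (red) and in all other cells (grey), from the authors' deposited table. Inside shares run from 27.5% for Lhx1 in cluster 7 to 78.2% for T, and outside shares from 3% to 11%; the dotted line is at 25%.

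Tcf15 marked clusters 0 and 7. Per the authors' deposited table, 53.8% of the cells of cluster 0 and 6.3% of all others detected it, with a fold of 3.62. The matching values of the authors' deposited table for cluster 7 were 49.5% inside and 11% outside, with a fold of 2.38. Each of these outside groups contains the other Tcf15 cluster. Against the 13 clusters with no entry, where 2.42% of cells detected it, Tcf15 stood at 4.44 in cluster 0 and 3.75 in cluster 7, a ratio of 1.18. The larger cluster 0 held 61.1% of the cells that detected Tcf15 and cluster 7 held 25.2%, together 86.3%, the largest share that listing clusters held for any of the 7 genes. In cluster 0 it ranked 2 of 37 higher genes by fold and 1 by detection ratio.

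Aplnr was listed for cluster 7 alone, where the authors' deposited table gave detection in 42% of its cells and 7.5% of all others and a fold of 2.36. Its detection ratio of 5.6 was the highest of the 40 genes listed higher in cluster 7. Even so, cluster 7, with 6.95% of all cells, held 29.5% of the cells that detected Aplnr. The remaining 70.5% lay in the 14 clusters that have no Aplnr entry, and the table does not show how they were distributed. Neither of the receptor's ligand genes, Apln and Apela, was in the table.

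Dll3 was highest in cluster 12, whose leading genes Tubb3, Tubb2b and Stmn2 encode tubulins and a stathmin of neurons. There the authors' deposited table gave detection in 42.2% of cells inside and 6.3% outside, with a fold of 3.27. Its second entry in the authors' deposited table, for cluster 7, had 28.7% inside and 5.3% outside, with a fold of 2.04. Against the 13 clusters with no entry the levels were 3.53 in cluster 12 and 2.13 in cluster 7, a ratio of 1.66. Cluster 12 held 1.60% of cells and 9.79% of those that detected Dll3, and cluster 7 held 28.9% of them, so the cluster with the higher level held the smaller share. The name of a paraxial mesoderm regulator thus covers only part of its entries.

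**Figure D3:**
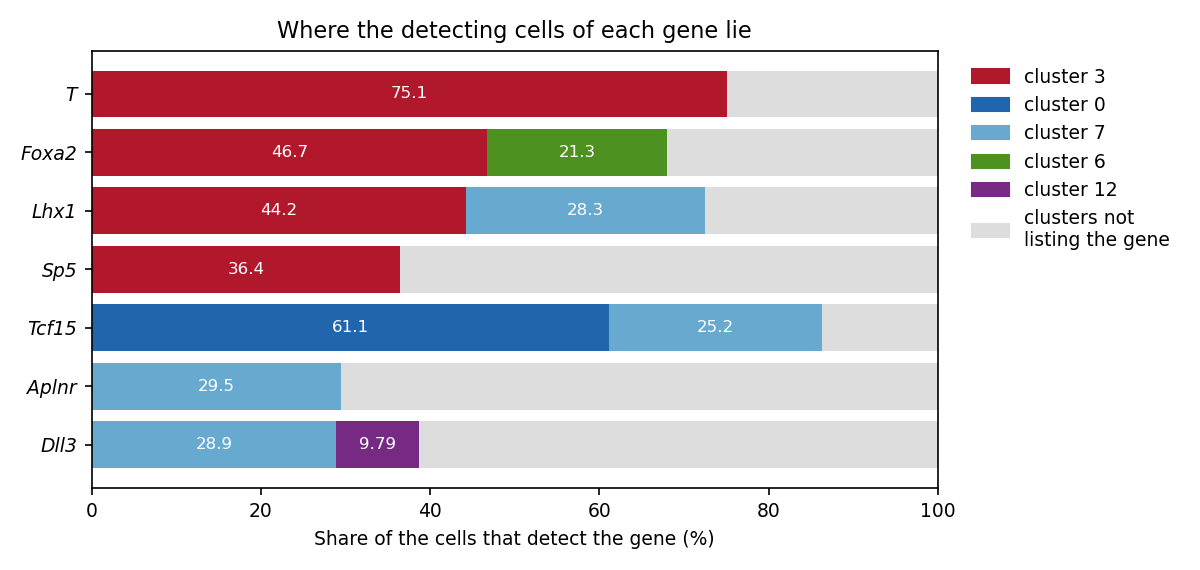
Share of the cells that detect each gene (percent, horizontal) lying in each listing cluster (colours) and in all clusters with no entry (grey), worked out from the authors' deposited table and the solved cluster sizes. The coloured part runs from 29.5% for Aplnr to 86.3% for Tcf15.

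The order of the 7 genes by detection over all cells was Tcf15 (13.7%), T (10.8%), Foxa2 (9.96%), Aplnr (9.90%), Sp5 (7.90%), Dll3 (6.90%) and Lhx1 (6.75%). These shares have no spread between libraries, so neighbours such as Foxa2 and Aplnr cannot be ranked. For the 4 genes with 2 entries, the share came out nearly the same from either cluster, with the widest gap for Dll3, at 6.87% and 6.93%. Detection outside the listing clusters, from 2.24% for Lhx1 to 7.5% for Aplnr, could not be set beside a cell type known to lack these genes, so the background that free RNA gives in droplets was not measured.

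**Figure D4:**
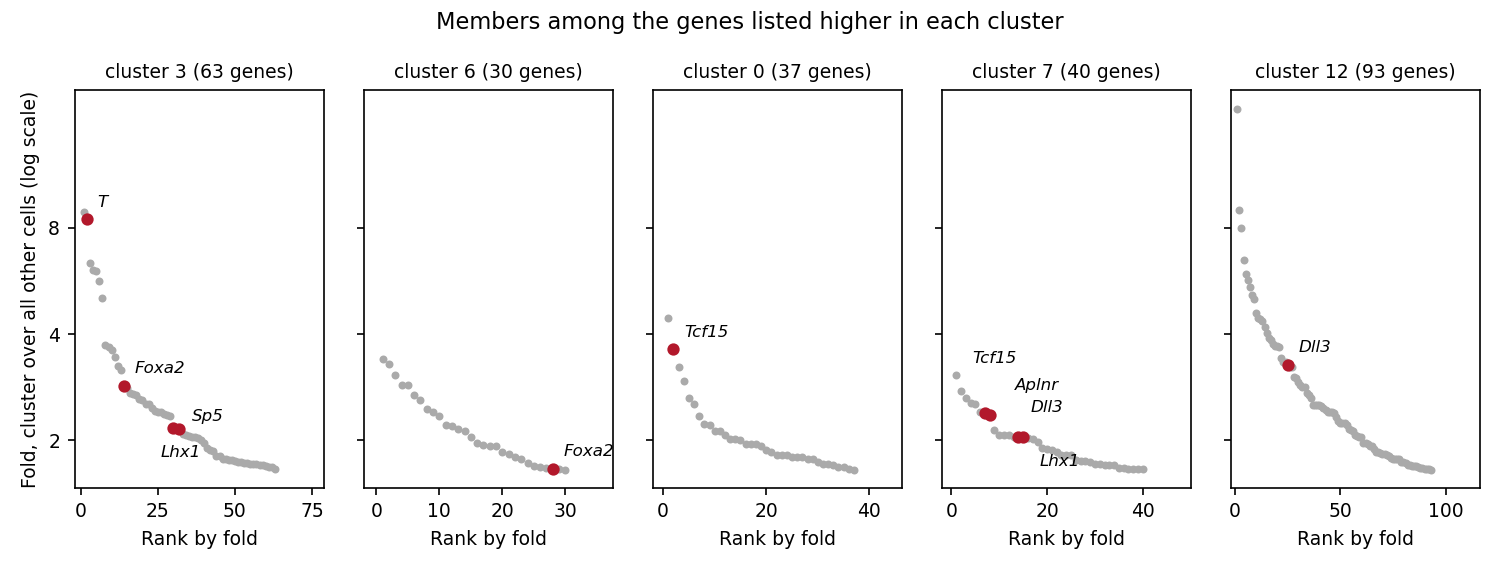
Fold of every gene listed higher in clusters 3, 6, 0, 7 and 12 (vertical, log scale) by its rank within the cluster (horizontal), from the authors' deposited table, with the 7 regulators in red. T ranks 2 of 63 in cluster 3 and Tcf15 ranks 2 of 37 in cluster 0, while Foxa2 ranks 28 of 30 in cluster 6.

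Over all features, the table's 1197 genes were 3.15% of the 37991 by which its p-values were adjusted, many of which may not be expressed here, so no gene list's count in the table is read as many or few. Among the 5 clusters with an entry of the 7, other streak genes were higher in clusters 0, 3 and 7. Of 25 further genes of the primitive streak and nascent mesoderm, 6 were in the table, and Mixl1, Eomes, Mesp1, Tbx6 and Msgn1 were not. Cluster 3 listed 2 of them higher and none lower. By the authors' deposited table these were Cer1, an antagonist of Nodal and BMP, at 3.43-fold and the membrane gene Ifitm1 at 2.54-fold. Cluster 7 listed 3 higher (Ifitm1, Cer1 and the Wnt antagonist gene Frzb) and cluster 0 listed 3 higher (Ifitm1, Fst and Cer1), with none lower. The median natural log fold of these genes was 1.08 in cluster 3, 0.72 in cluster 7 and 0.73 in cluster 0, beside 0.76, 0.63 and 0.65 over all genes listed higher there. Clusters 6 and 12, the other places of Foxa2 and Dll3, listed Ifitm1 lower, by folds that the authors' deposited table gave as 2.71 in cluster 6 and 3.48 in cluster 12. Ifitm1 was also lower in clusters 1, 2, 4, 5, 9, 11, 13 and 14, which listed none of the 7. Streak genes were higher in some of these too. The authors' deposited table gave Fgf8 folds of 1.69 in cluster 1 and 2.49 in cluster 4. For cluster 14 it gave Pdgfra and Fst folds of 2.13 and 2.53.

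Midline genes differed between the clusters of Foxa2. Of 21 genes of the node, notochord and floor plate, 6 were in the table, and the notochord genes Noto and Chrd were not. Cluster 3 listed 3 higher, all keratins that other simple epithelia share. Krt8, Krt19 and Krt18 had folds of 8.87, 6.04 and 5.66 by the authors' deposited table. All 3 were also higher in cluster 14. Cluster 6 listed Shh, the secreted signal of notochord and floor plate, as the 1 higher gene and Krt8 as the 1 lower gene, with folds by the authors' deposited table of 2.21 up and 3.33 down. Krt8 was also lower in clusters 0, 1, 4, 5, 10, 11 and 12, so that direction was not particular to cluster 6. Shh detection by the authors' deposited table was 30.3% in cluster 6 and 4% in all other cells. Of 19 endoderm genes, 9 were in the table and cluster 3 listed 4 higher, Cldn6, Epcam, Cer1 and Dkk1, while Sox17 was not among them. Their median natural log fold was 1.27, beside 0.76 over all genes listed higher there. All 4 are also on other lists used here, Cldn6 and Epcam as epithelial, Cer1 as streak and Dkk1 as Wnt genes. Cluster 14 listed 6 of the endoderm genes higher, among them Cldn6, Epcam and Sox17, and 1 lower. Cluster 8 listed Epcam and Cldn6 higher.

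Other cell types had entries beside the 7 in cluster 3. All 6 epithelial markers were higher there, and the adhesion genes Epcam and Cdh1 had folds of 3.67 and 2.42 by the authors' deposited table. These markers were not particular to cluster 3. Cluster 14 listed 5 of the 6 higher. For cluster 8 the authors' deposited table gave Epcam and Cdh1 folds of 4.04 and 2.14. Of 5 pluripotency markers, 4 were in the table and 2 were higher in cluster 3. These were Fgf5, an epiblast gene, with a fold of 3.24 and Pou5f1 with a fold of 2.35 by the authors' deposited table. Both had larger folds in cluster 8, of 3.32 and 6.31 by the authors' deposited table. Cardiomyocyte, extraembryonic endoderm, and blood and endothelial markers had 0 higher entries in the 5 clusters, and among neural progenitor markers only Sox2 was higher, in cluster 6, with a fold of 2.45 by the authors' deposited table. The part of these markers' cells in the entries of the 7 genes was not tested.

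The paraxial and Notch lists gave 1 partner each. Of 22 paraxial mesoderm and somite genes, 3 were in the table, and Meox1, Pax3, Foxc2, Dll1, Lfng and Hes7 were not. Cyp26a1, which degrades retinoic acid, was the single one listed beside the members, and cluster 0 listed none. Its fold by the authors' deposited table was 2.16 in cluster 3 and 2.14 in cluster 7. Cyp26a1 was also higher in cluster 14, which listed none of the 7, with a fold of 1.74 by the authors' deposited table. Of 19 Notch pathway genes, only Mfng, a glycosyltransferase that modifies Notch receptors, was in the table. In cluster 12, where Dll3 was also highest, the authors' deposited table gave Mfng a fold of 3.91 and detection in 46.1% of cells inside and 1.7% outside. Outside this list, the authors' deposited table gave the Hes-family gene Hes6 a fold of 5.69 in cluster 12.

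Among the 5 clusters with an entry of the 7, genes of Wnt antagonists were higher in clusters 0, 3 and 7, and Sfrp1 was lower in clusters 6 and 12. Of 21 canonical Wnt pathway genes, 5 were in the table, and the common target genes Axin2 and Lef1 were not. Not all Wnt genes are on this list. Outside it, the authors' deposited table had the Wnt secretion gene Wls higher in clusters 0 and 7, by folds of 2.34 and 2.08. The ligand gene Wnt1, also outside it, was 3.06-fold higher in cluster 6 by the authors' deposited table. Beside T and Sp5 in cluster 3, the authors' deposited table had Dkk1, which encodes a Wnt antagonist, 2.68-fold higher and the cyclin gene Ccnd1 1.66-fold lower. For cluster 7 the authors' deposited table had Sfrp1 and Frzb, both antagonists of Wnt, higher by folds of 2.53 and 1.71, and Ccnd1 lower by a fold of 1.65. Cluster 0, by the authors' deposited table, had Sfrp1 higher by a fold of 1.68 and Ccnd1 lower by a fold of 1.83. Sfrp1 went the other way in clusters 6 and 12, where the authors' deposited table had it lower by folds of 2.20 and 2.48. Neither direction was particular to these clusters. Sfrp1 was also lower in clusters 1, 2, 4, 8, 13 and 14. The authors' deposited table had it 2.55-fold higher in cluster 5, and Dkk1 1.75-fold higher in cluster 4. Ccnd1 was also lower in clusters 2, 9 and 14, by folds of 3.02, 1.89 and 2.68 in the authors' deposited table. In clusters 1 and 4 the authors' deposited table had Ccnd1 higher, by folds of 2.62 and 1.74. Of 12 Nodal pathway genes, 3 were in the table, and Nodal, Lefty1, Lefty2 and Tdgf1 were not. The Nodal co-receptor gene Cfc1 is outside this list, and the authors' deposited table had it 2.82-fold higher in cluster 3. Among the 5 clusters, Cer1 was higher in clusters 0, 3 and 7 and Fst in cluster 0 with a fold of 2.07 by the authors' deposited table. Outside them, Fst was also higher in cluster 14, where the authors' deposited table gave 2.53, and the activin receptor gene Acvr2b was lower in clusters 2 and 14.

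The genes most like each member were taken by the Jaccard index of their entries, the shared cluster and direction entries divided by all entries of the pair, over 15 clusters. Ties were broken by the closest fold, and predicted gene models were left out. For T, 12 genes shared its single entry, and the closest was Trh, which encodes thyrotropin-releasing hormone, with a fold of 6.37 by the authors' deposited table, followed by Cfc1, a co-receptor of Nodal signalling, and Calca. Sp5 has the same single entry as T, and its fold was closest to those of the cilium gene B9d1, Samd3 and Capsl. For Tcf15, 6 genes had an index of 1, led by Gchfr, the pharyngeal T-box gene Tbx1 and Col23a1. With higher entries only, its closest were instead Prtg, Crabp1 and Hist1h1e, which have lower entries in other clusters. For Aplnr, 4 had an index of 1, led by the Iroquois gene Irx1, the zinc transporter gene Slc39a8 and Pkdcc. Lhx1 was most like Cyp26a1 and Cer1, both with an index of 0.67, and then Sp5. No gene had the same set of entries as Foxa2 or Dll3, whose highest index was 0.5, reached by 29 genes for Foxa2 and 54 for Dll3. The closest for Foxa2 were Pvrl3 and Tspan13, listed for cluster 6, and Cfc1, listed for cluster 3. For Dll3 they were Stmn3, Onecut2 and Tppp3, all listed for cluster 12 alone.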

How the data were processed

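The submitters' processing notes name Cell Ranger, Seurat and the mm9 build, with no versions. The settings for cell filters, doublets and clusters are not stated by the labels. The authors deposited 1 table, in which fold changes are natural log values, detection is a fraction of cells inside and outside each cluster (printed as percent), and the p-value compares cells, which are not replicates. These p-values served only as a filter in 1 alternative. The natural base was checked on 3 genes whose entries cover all but at most 5% of cells. The level left for the remaining cells was 0.949 to 1.56 times that of all cells with the natural base, 2.65 to 34.5 times with base 2, and below 0 with base 10.

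Cluster sizes were solved by least squares, since the overall detection of each of 407 genes listed for at least 2 clusters must be the same from each. Their sum was 100.002%, and detection left over from the fit had an SD of 0.0272 percentage points. In a test on simulated data with 1087 genes, sizes were off by at most 0.0249 percentage points. The simulated shares followed the solved relation exactly apart from rounding. The test therefore checks the calculation and not the sizes of the real clusters. A cluster's level over all cells is f/(1 - w + fw), with f the fold and w the size.

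The 7 genes, the gene lists and the naming rule were chosen with earlier results of these data known. The rule names all 7 genes, up to 4 list members per cluster by fold, the 3 most similar genes and the 3 leading genes of a cluster. One gene is left out of the lists and is not reported here. List genes are named only as far as the rule takes them or a result needs them. Wls and Hes6 lie outside the rule and are named to show what the lists leave out. All 7 symbols matched the current names. The RefSeq build of the promoter sequences differs from mm9. Calculations used Python 3.11.15, numpy 2.4.6, pandas 2.3.3 and matplotlib 3.10.9.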

Additional observations from a re-analysis of the deposited data

How the results depend on the processing

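The 11 higher entries of the 7 genes became 8 where the change had to reach 0.75 on the natural log scale and 4 where it had to reach 1 (Tcf15 in cluster 0, T and Foxa2 in cluster 3, Dll3 in cluster 12). They became 6 where the larger detection share had to reach 0.4, and stayed 11 at an adjusted p-value under 0.001. Other ways of solving cluster sizes moved each share of detecting cells and each level by at most 0.958%. Entries of the gene lists in the 5 clusters also thinned. With changes of at least 1 on that scale, streak genes went to 2 from 8, endoderm to 3 from 6, paraxial to 0 from 2, Wnt to 0 from 4, Nodal to 1 from 4, neural progenitor to 0 from 1, pluripotency to 1 from 2, node to 3 from 4 and epithelial to 5 from 6, and Notch stayed at 1. At a detection share of at least 0.4, streak genes went to 5, endoderm to 4, paraxial to 1, Wnt to 2, Nodal to 2, node to 3 and epithelial to 5. These settings leave fewer entries by construction. With higher entries only, the 3 most similar genes kept 3 for T, Aplnr and Dll3, 2 for Foxa2, 1 for Lhx1 and Sp5, and 0 for Tcf15. No paired analysis was possible because the table carries no samples or replicate numbers. Depth and cell numbers are unknown, so no counting interval was made.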

Other observations

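Some genes on the same lists were higher only in clusters with no entry of the 7 regulators. In cluster 10, led by Col3a1 and Col1a2, the authors' deposited table gave the paraxial list genes Tbx18 and Twist1 folds of 3.42 and 1.79 and the Wnt feedback gene Nkd1 a fold of 2.33. For cluster 5 the authors' deposited table gave Sox9, a factor of cartilage and notochord, a fold of 2.85. The endoderm factors Sox17, Gata4 and Gata6 had folds of 6.29, 2.27 and 2.55 by the authors' deposited table in cluster 14, where Foxa2 had no entry. Sox17 is also on the extraembryonic endoderm list. The other genes of that list in the table, Ttr and Dab2, were higher in cluster 14 too, with folds of 12.3 and 8.99 by the authors' deposited table. Cluster 14 held only 0.291% of cells, so the solved shares set no upper limit on Foxa2 detection there.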
